A study of Mus musculus with 2 samples.

Results

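The clustered protocadherin genes were examined in 2 MeDIP-seq peak lists of mouse fat, as the methylated regions that overlapped chr18:37080000-38010000 of mm9 by 1 bp or more. This stretch of 930 kb holds the Pcdha, Pcdhb and Pcdhg gene clusters, in this order along the chromosome. It was defined by position alone and contained 95 of the 166438 peaks in the chow list and 114 of the 175773 peaks in the high-fat list, 209 of 342211 in all. MeDIP-seq captures fragments of genomic DNA that carry 5-methylcytosine with an antibody and sequences them, and a peak is a stretch where captured fragments pile up. The tissue was epididymal white fat, the depot beside the testis, of male mice of the inbred strain C57BL/6J. From 4 weeks of age and for 5 months the animals ate either a standard chow (STD) or a diet with 60% of its energy from fat (HFD), and each diet is represented by 1 library. No genetic change is named for either group, and the number of mice behind each library is not given in the sources used here.

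Clustered protocadherins are cell adhesion proteins of the cadherin family, known above all from neurons, where each cell displays its own combination of them and cells recognise their own branches by it. The Pcdha and Pcdhg clusters consist of a tandem row of large variable exons, each with its own promoter, that are spliced to constant exons shared by the whole cluster, whereas Pcdhb genes are single-exon genes without shared constant exons. DNA methylation of the variable exons and their promoters, together with binding of the insulator protein CTCF, is known to take part in choosing which of them is transcribed. In a RefSeq gene table of the later assembly GRCm38.p6, used for names and order and for no position, the row is made of 14 Pcdha genes (Pcdha1 to Pcdha12, then Pcdhac1 and Pcdhac2), 22 Pcdhb genes and 22 Pcdhg genes, of which 57 of 58 are listed as protein-coding. Hars, Hars2 and Zmat2 precede the row, Slc25a2 and Taf7 lie between Pcdhb and Pcdhg, and Diaph1, Hdac3 and Rell2 follow it. Because that table is not on mm9, no peak was assigned to a single gene, and positions below are distances from the start of the region, which is its Pcdha end.

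The lists give the start and end of each peak and no height, score or read count, so depth is unknown and the measurements are presence, position and width. No STD peak was narrower than 263 bp and no HFD peak narrower than 255 bp, and the HFD list was longer by a factor of 1.06 on the autosomes. Fat is a mixture of adipocytes and other cells, so methylation in fewer cells and less methylation per cell cannot be told apart. The labelled tissue could not be checked against marker genes, since the lists hold no expression values. Since each diet is 1 library, differences between the diets could not be set against a spread between replicates, and no test was made. The intervals given are exact 95% intervals that cover counting error alone and treat peaks as independent.

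Peaks were more frequent in the protocadherin clusters than over chromosome 18 as a whole, and about as frequent as in the DNA on both sides of them. The density was 102 peaks per Mb (82.6 to 125) with STD and 123 (101 to 147) with HFD. Over the rest of chromosome 18 it was 70.2 and 74.2 peaks per Mb, which makes the clusters 1.46 times (1.18 to 1.78) and 1.65 times (1.36 to 1.99) as dense. The 1 Mb on the proximal side, before Pcdha, held 95 STD and 100 HFD peaks, and the 1 Mb on the distal side, after Pcdhg, held 133 and 140. Against both flanks together the clusters were 0.896 times as dense with STD (0.698 to 1.14) and 1.02 times with HFD (0.810 to 1.28), and both intervals include equality. In covered bases these ratios were 1.15 and 1.30. Among 92 other windows of 930 kb on chromosome 18, 23 held more STD peaks and 13 held more HFD peaks.

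The peaks were distributed unevenly along the clusters, dense in the first 100 kb, from 550 to 600 kb and from 750 to 850 kb, and most sparse from 100 to 350 kb. In steps of 50 kb from the region start, the most peaks were found in step 17 (800 to 850 kb, 11 STD and 14 HFD peaks), step 1 (0 to 50 kb, 10 and 12) and step 16 (750 to 800 kb, 10 and 12). Step 2 (9 and 10) and step 12 (550 to 600 kb, 9 and 11) followed. The fewest were found in step 4 (150 to 200 kb), with no STD peak and 1 HFD peak, in step 10 (450 to 500 kb), with 2 STD peaks and no HFD peak, and in step 6 (250 to 300 kb), with 2 and 3. A step of the same size on the rest of chromosome 18 held a median of 3 peaks in either list. Of its 1736 steps, 37 held at least the 11 STD peaks of step 17, and 2 held at least its 14 HFD peaks.

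**Figure D1:**
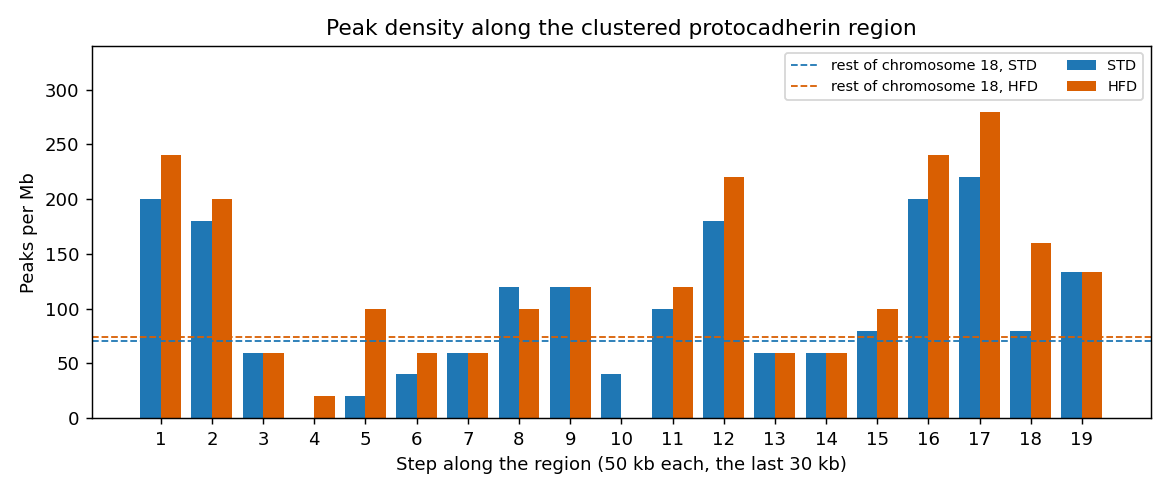
Peaks per Mb (vertical axis) in 19 steps from the Pcdha end to the Pcdhg end of the region (horizontal axis), as 1 bar per library and step, with dashed lines at the density over the rest of chromosome 18. Steps 1, 2, 12, 16 and 17 stand at 180 peaks per Mb or above in both libraries, and step 4 has no STD bar and step 10 no HFD bar because no peak lay there.

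The profiles of both libraries were similar. Across the 19 steps the numbers of peaks correlated at r = 0.93, where steps share their DNA and base composition between libraries and are not replicates. HFD peaks were more numerous in 11 steps, STD peaks in 2, and the numbers were equal in 6. The variance of the number of peaks over the 18 full steps was 2.29 times its mean with STD and 2.79 times with HFD. In other chromosome 18 windows with at least 20 peaks the median of this ratio was 1.23 in both libraries, and 6 of 80 (STD) and 2 of 81 (HFD) windows exceeded the clusters. The unevenness was therefore at the upper end of what chromosome 18 showed, but not outside it.

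The first 100 kb, at the Pcdha end, carried the most closely packed broad peaks of the region. It held 19 STD peaks and 22 HFD peaks, or 190 and 220 per Mb, with median widths of 581 and 548 bp. Peaks covered 12% of its bases with STD and 13% with HFD, against 2.58% and 2.63% over the rest of chromosome 18. In step 1, 6172 bp were covered with STD and 6858 bp with HFD, and none of the 1736 other steps of chromosome 18 reached either value. In step 2 the covered length was 5802 bp with STD, which 1 other step reached, and 6179 bp with HFD, which none reached.

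Within this stretch broad peaks followed each other at intervals of several kb in both libraries. A peak is called wide here when it exceeds the narrowest peak of its list by more than 200 bp. By this measure 12 of 19 peaks with STD and 15 of 22 with HFD were wide. Every one of them overlapped a peak of the other diet, as did 93.7% (STD) and 92.8% (HFD) of wide peaks on the autosomes outside the region. Consecutive wide STD peaks were centred at 11.9, 20.5, 27.6, 34.1, 49.1, 55.3, 68.9, 72.1, 73.8, 79.2, 86.6 and 92.4 kb from the region start. The median distance between them was 6.45 kb (quartiles 5.59 and 8.0 kb), and the largest was 15.1 kb. Between wide HFD peaks the median was 5.79 kb (quartiles 3.57 and 7.23 kb). Each of the 12 wide STD peaks overlapped a wide HFD peak, and those at 20.5 and 55.3 kb overlapped 2. The remaining wide HFD peak, at 60.0 kb, overlapped an STD peak of 455 bp that was below the limit.

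**Figure D2:**
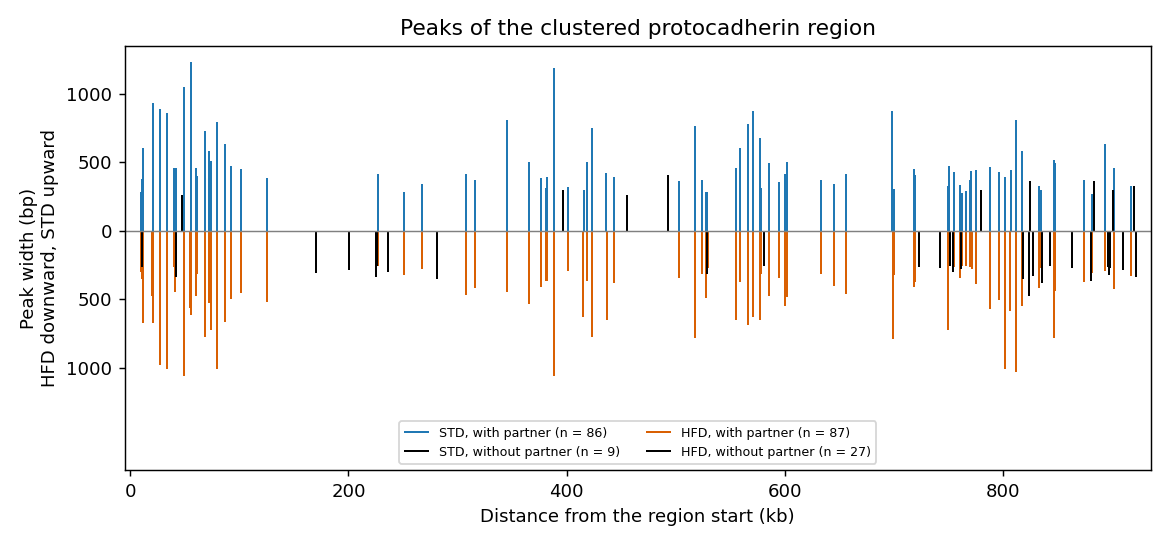
Each vertical line is 1 peak, placed by its midpoint as distance from the region start (horizontal axis, kb) and drawn to its width (vertical axis, bp), STD upward and HFD downward, with peaks that lack an overlapping peak of the other diet in black. The tall lines crowd into the first 100 kb and recur between 345 and 602 kb and near 700 and 812 kb, at nearly the same places above and below the axis. The 27 black HFD lines are no longer than 478 bp. Of these, 15 lie beyond 750 kb, where HFD lines of either colour number 26 up to 850 kb and 12 after it.

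The broadest peak of the region was the STD peak at chr18:37134689-37135920, 1232 bp wide, in the first 100 kb. It ranked 124th by width among the 166432 nuclear STD peaks and 6th on chromosome 18, and in the HFD library 2 peaks of 567 and 616 bp covered the same place. Next came chr18:37468152-37469339 (1188 bp), 389 kb from the region start, with an HFD partner of 1058 bp. The other members of the 5 broadest STD peaks all lay in step 1. They were chr18:37128603-37129655 (1053 bp, HFD partner 1063 bp), chr18:37100027-37100962 (936 bp, covered by 2 HFD peaks of 477 and 674 bp) and chr18:37107176-37108064 (889 bp, HFD partner 981 bp). All 5 overlapped an HFD peak, and 2 of them overlapped a pair.

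Of the 5 broadest HFD peaks, the first 2 were partners of peaks just named. Its broadest peak was the partner at chr18:37128577-37129639 (1063 bp), followed by chr18:37468196-37469253 (1058 bp). At chr18:37891278-37892310, 812 kb from the region start, an HFD peak of 1033 bp overlapped an STD peak of 808 bp. The peaks chr18:37113553-37114563 (1011 bp) and chr18:37158710-37159717 (1008 bp) in the first 100 kb had STD partners of 859 and 794 bp. In these last 3 places the HFD peak was the broader one, by more than 100 bp each, but they were picked for broad HFD peaks. Over all 79 pairs of single overlapping peaks, the HFD peak was the wider in 39 and the STD peak in 39.

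From 100 to 350 kb peaks were sparse and unlike those before them. There were 9 STD peaks (36 per Mb, 16.5 to 68.3) and 15 HFD peaks (60 per Mb, 33.6 to 99), and 1 and 2 of these were wide. The longest stretch without a peak in either list was here, 44.0 kb from chr18:37205996 to 37250006. With STD alone the stretch without a peak ran on to chr18:37306871 and measured 101 kb. Within it lay 4 consecutive HFD-only peaks, of 308, 284, 335 and 255 bp, between 170 and 226 kb from the region start, which formed the longest run of neighbouring loci found with 1 diet only in the region. The longest STD-only run had 2 loci, between 455 and 493 kb.

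From 350 to 600 kb the libraries had equal numbers, with 28 peaks each (112 per Mb, 74.4 to 162). Wide peaks made up 10 of the 28 with STD and 13 of the 28 with HFD. They concentrated in step 12, where 5 of 9 STD peaks and 6 of 11 HFD peaks were wide. In that step the 5 wide STD peaks were centred at 559, 566, 571, 578 and 586 kb, with widths of 602, 782, 875, 677 and 496 bp. A step with at least 5 wide STD peaks occurred 2 times among the 1736 other steps of chromosome 18, and one with 6 wide HFD peaks did not occur there. The stretch from 456 to 493 kb, 37.2 kb long, had no peak in either list.

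From 600 to 750 kb, 10 STD and 11 HFD peaks were found (66.7 and 73.3 per Mb), with 42.1 kb free of peaks in both lists from 656 to 698 kb. From 750 to 850 kb, toward the Pcdhg end, the density reached 210 STD peaks per Mb (130 to 321) and 260 HFD peaks per Mb (170 to 381), from 21 and 26 peaks. Step 17 had the highest covered length of the region in the HFD library, 7233 bp, above every other step of chromosome 18, and 4893 bp with STD, which 7 other steps reached. The peaks here were less broad than at the Pcdha end, with medians of 392 and 350 bp.

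A run of wide HFD peaks at similar distances lay in and just before step 17, and was chosen for description after its values were seen. Wide HFD peaks were centred at 796, 802, 807, 812, 818 and 823 kb from the region start, and consecutive distances were 5.43, 5.15, 5.13, 5.81 and 5.76 kb. Their widths were 506, 1007, 585, 1033, 550 and 478 bp. The distances leave out an HFD peak of 354 bp that was not wide, 0.637 kb after the one at 818 kb. In the STD library the places of the first 5 wide peaks were also occupied. The STD widths there were 429 bp, 291 and 392 bp in 2 peaks, and 442, 808 and 581 bp. At the last, chr18:37903129-37903606, no STD peak overlapped, and an STD-only peak of 364 bp lay 439 bp away. This HFD peak was the widest without a partner in the region, and the neighbouring STD peak was 1 of 2 of that width without one.

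The last 80 kb, from 850 to 930 kb, resembled the rest of the chromosome in width. Its 8 STD and 12 HFD peaks had median widths of 347 and 316 bp, and 1 STD peak and no HFD peak was wide. A partner was present for 5 of 8 peaks with STD (62.5%, 24.5 to 91.5) and 5 of 12 with HFD (41.7%, 15.2 to 72.3). Both intervals include the share over all nuclear peaks, 73.5% with STD and 69.7% with HFD. Step 18 had the lowest share with a partner among steps with at least 8 peaks over both lists, 6 of 12 (50%, 21.1 to 78.9). Step 19 had the same share with 4 of 8. The interval of step 18 also includes the shares over all nuclear peaks. The highest was in step 2, where all 19 peaks had a partner (100%, 82.4 to 100), as did all 12 in step 9.

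Protocadherin peaks were wider than those around them in both libraries. The median width was 415 bp with STD (380 to 452) and 376.5 bp with HFD (346 to 428). In both flanks together it was 349 and 328.5 bp, and over the rest of chromosome 18 it was 331 and 322 bp. Measured above the narrowest peak of each list, the medians were 152 and 121.5 bp in the clusters, against 68 and 67 bp on the rest of the chromosome. Of 2165 autosomal windows of 930 kb with at least 20 STD peaks, none had a higher median STD width, and of 2188 with at least 20 HFD peaks, 2 had a higher median HFD width.

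A larger share of the protocadherin peaks was broad. In the clusters 32 of 95 STD peaks were wide (33.7%, 24.3 to 44.1), whereas 14.6% of all nuclear STD peaks were. With HFD it was 42 of 114 (36.8%, 28.0 to 46.4) against 13.8%. In the flanks, 36 of 228 STD peaks (15.8%) and 30 of 240 HFD peaks (12.5%) were wide. Peaks of at least 600 bp made up 21.1% of the protocadherin peaks in both libraries, 20 with STD and 24 with HFD, against 4.89% and 4.04% over the rest of chromosome 18. Narrow peaks, within 20 bp of the minimum, made up 7 of 95 with STD (7.37%, 3.01 to 14.6) against 22.1% over the rest of the chromosome, and 18 of 114 (15.8%, 9.63 to 23.8) with HFD against 22.9%.

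**Figure D3:**
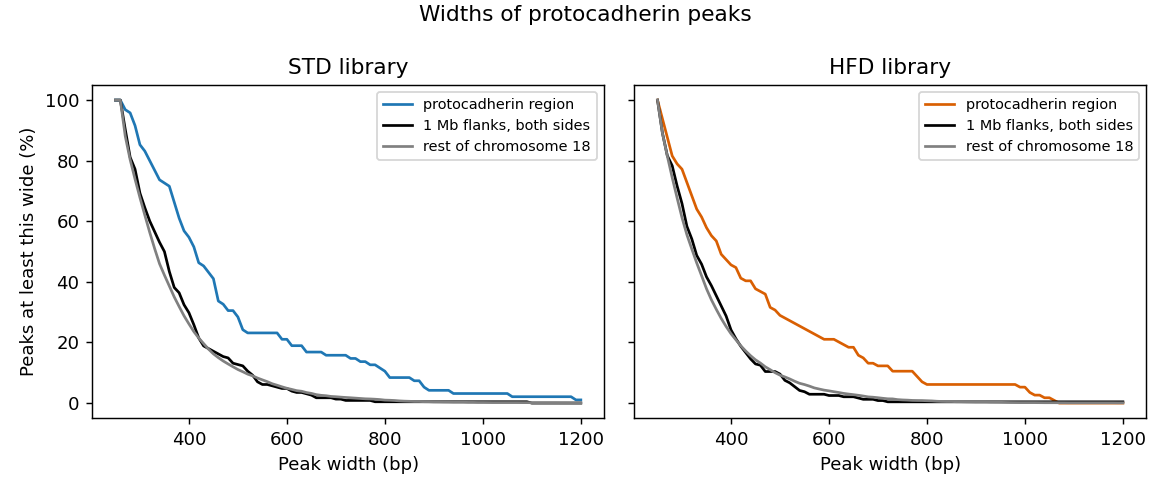
Share of peaks (vertical axis, %) that are at least as wide as the value on the horizontal axis (bp), for the protocadherin region, its 1 Mb flanks and the rest of chromosome 18, in each library. The flanks follow the rest of the chromosome, and the curve of the region lies above both over most of the range, with 28.4% of STD and 28.9% of HFD peaks at 500 bp or more.

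Widths were also above those of the rest of the chromosome outside the first 100 kb. Without that stretch the median was 390.5 bp with STD and 366.5 bp with HFD, and wide peaks made up 26.3% and 29.3%. No other window of chromosome 18 had as high a share of wide peaks as the clusters, of 80 tested with STD, which reached 25%, and 81 with HFD, which reached 24.1%. Over all autosomes, 3 of 2165 windows (STD) and 1 of 2188 (HFD) had a higher share. The number of wide peaks, 42, was not reached by any of 2585 autosomal windows with HFD, and 30 windows exceeded the 32 found with STD.

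**Figure D4:**
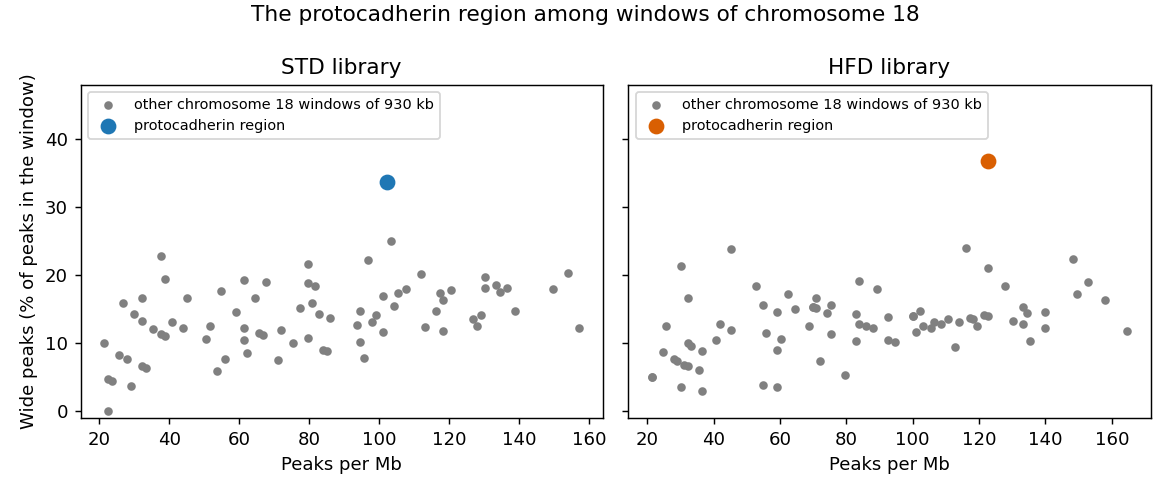
Density (horizontal axis, peaks per Mb) and share of wide peaks (vertical axis, % of peaks in the window) of chromosome 18 windows of 930 kb with at least 20 peaks, grey, and of the protocadherin region, coloured, in each library. The region lies in the middle to upper range of density, at 102 and 123 peaks per Mb, and above all grey points in share, at 33.7% and 36.8%.

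Neighbouring peaks were closer than over the rest of chromosome 18 and about as close as in the flanks. Broad peaks in particular were close together. The median distance between midpoints of neighbouring peaks was 6.20 kb with STD (quartiles 3.29 and 9.76 kb) and 5.18 kb with HFD (1.31 and 8.69 kb). Over the rest of chromosome 18 it was 7.43 and 7.17 kb, and in the flanks 6.43 and 6.35 kb. The intervals of the medians in the clusters, 5.03 to 7.30 kb (STD) and 4.30 to 6.64 kb (HFD), include the flank values. The STD distance was shorter in 23 of 80 other chromosome 18 windows, and the HFD distance in 2 of 81. Consecutive wide peaks were a median of 8.58 kb (STD) and 8.11 kb (HFD) apart, whereas over the rest of the chromosome 43.7 and 45 kb separated them. Of these distances 16 of 31 with STD and 24 of 41 with HFD were 10 kb or less, against 13.8% and 13.6% elsewhere on the chromosome.

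Some stretches were divided differently in the libraries. Gaps of up to 500 bp between neighbouring peaks of 1 list made up 10 of 94 with STD (10.6%, 5.22 to 18.7) and 20 of 113 with HFD (17.7%, 11.2 to 26.0). Over the rest of chromosome 18 they made up 5.24% and 5.31%. There were 3 STD peaks (3.16%) that each overlapped 2 HFD peaks, and 2 HFD peaks (1.75%) that each overlapped 2 STD peaks. Over the rest of chromosome 18, 0.525% of STD and 0.248% of HFD peaks overlapped several. Peaks were also wider and denser in the clusters, and the part of width and density in these shares was not tested. When peaks across gaps of up to 500 bp were joined, the region held 91.4 STD and 101 HFD stretches per Mb.

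Most protocadherin peaks were found with both diets. With STD, 86 of 95 peaks overlapped an HFD peak (90.5%, 82.8 to 95.6), and with HFD, 87 of 114 overlapped an STD peak (76.3%, 67.4 to 83.8). The 9 STD peaks without a partner compare with 26.5% of all nuclear STD peaks, and the 27 HFD peaks without one with 30.3% of all nuclear HFD peaks. In the flanks 76.3% and 72.5% had a partner, and over the rest of chromosome 18 it was 74.2% and 70.5%. Of other chromosome 18 windows with at least 20 peaks, 0 of 80 had a higher share with STD and 7 of 81 with HFD. Taken as 120 separate loci, 84 (70%, 61.0 to 78.0) held peaks of both diets, 27 (22.5%) an HFD peak alone and 9 (7.5%) an STD peak alone. On the rest of the chromosome 56.4% of loci held both, 23.8% an HFD peak alone and 19.7% an STD peak alone.

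Width and partner share moved together, as they did on the autosomes. All 32 wide STD peaks and 41 of the 42 wide HFD peaks had a partner. Among the narrow peaks 5 of 7 STD and 8 of 18 HFD peaks had one. On the autosomes outside the region, 93.7% of wide and 47.7% of narrow STD peaks had a partner. With HFD it was 92.8% and 42.9%. If each width class of the region had the partner share of that class on the autosomes, 83.6% of its STD peaks and 77.2% of its HFD peaks would have one. The observed HFD share was close to that value, and the observed STD share was higher, with an interval that includes it.

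Where a single STD peak and a single HFD peak overlapped, neither library had the wider peaks. In the 79 such pairs the midpoints were a median of 44 bp apart, more than the 24 bp over the rest of chromosome 18. The HFD peak was the wider one in 39 pairs and the STD peak in 39, and the widths were equal in 1. The median difference in width, HFD minus STD, was 0 bp (quartiles -38.5 and 53.5 bp), and over the rest of the chromosome it was -9 bp (-48 and 33 bp). Median widths in the pairs were 429 bp with STD and 428 bp with HFD. The widths of partners correlated at r = 0.83 across pairs, against 0.69 on the rest of the chromosome, where partners share their sequence and pairs are not replicates.

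Peaks found with 1 diet only were mostly HFD peaks. They were 27 of 114 HFD peaks (23.7%, against 30.3% of all nuclear HFD peaks) and 9 of 95 STD peaks (9.47%, against 26.5%). The share without a partner was thus low with STD and not raised with HFD. Among the peaks without a partner, HFD peaks made up 75% (57.8 to 87.9). Over the rest of chromosome 18 the HFD share was 54.7% (53.1 to 56.4), and in the flanks it was 55.0% (45.7 to 64.1). Of 69 other chromosome 18 windows with at least 20 such peaks, 3 had a higher share, and over all autosomes it was 15 of 1862, with 7 equal. More HFD-only peaks were held by 28 of 92 chromosome 18 windows, and fewer by 63. More STD-only peaks were held by 64 of the 92, and fewer by 23. The share was 57.6% (39.2 to 74.5), from 19 HFD and 14 STD peaks, when the same number of widest peaks was taken from each list, and 56.7% (37.4 to 74.5) in the wider 50% of each list.

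The HFD-only peaks had a lower median width than HFD peaks with a partner, as elsewhere on chromosome 18. Of the 27, 15 lay beyond 750 kb, where HFD peaks of any kind were also numerous, with 26 from 750 to 850 kb and 12 beyond. The median width of the 27 HFD-only peaks was 300 bp, from 255 to 478 bp. That of the 9 STD-only peaks was 297 bp, from 263 to 404 bp. Peaks with a partner had medians of 445 and 430.5 bp. Over the rest of chromosome 18 the medians without a partner were 282 bp (HFD) and 288 bp (STD), and those with a partner 345 and 352 bp. HFD-only peaks were 2 of 22 HFD peaks in the first 100 kb, 6 of 15 from 100 to 350 kb, 2 of 28 from 350 to 600 kb, 2 of 11 from 600 to 750 kb, 8 of 26 from 750 to 850 kb and 7 of 12 beyond. Of all HFD peaks 30.3% had no partner, and the share from 750 to 850 kb was close to that. STD-only peaks were 1 of 19, 0 of 9, 3 of 28, 0 of 10, 2 of 21 and 3 of 8 STD peaks in the same order. Of all STD peaks 26.5% had no partner. From 350 to 600 kb the peaks found with 1 diet only were few in both lists, 3 with STD and 2 with HFD. Some lay close to a peak of the other list. An STD peak lay within 1 kb of 11 of the 27 HFD-only peaks (40.7%, 22.4 to 61.2), whereas the share over the rest of the chromosome was 17.6%. STD peaks were also denser in the clusters, at 102 against 70.2 per Mb, and the part of density in this share was not tested. For 7 of the 27 the nearest STD peak was more than 5 kb away.

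**Figure D5:**
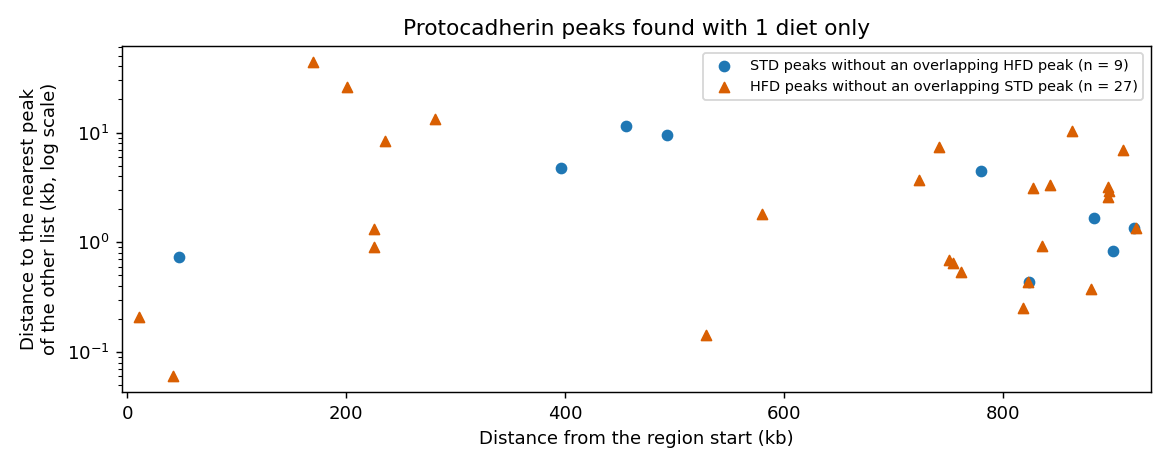
Distance to the nearest peak of the other list (vertical axis, kb, log scale) against distance from the region start (horizontal axis, kb) for the 9 STD and 27 HFD peaks without an overlapping partner. The HFD peak at 170 kb is the most isolated, 44.2 kb from any STD peak. Of the 36 points 20 lie beyond 750 kb, where peaks with or without a partner were also numerous. These were 21 STD and 26 HFD peaks from 750 to 850 kb, and 8 and 12 beyond.

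The widest of the peaks without a partner were the following. With STD, chr18:37572789-37573192 (404 bp) was 9.45 kb from the nearest HFD peak, chr18:37904046-37904409 (364 bp) was 0.439 kb away and chr18:37963115-37963478 (364 bp) 1.67 kb away. With HFD, chr18:37903129-37903606 (478 bp) was 0.439 kb from an STD peak, chr18:37915421-37915805 (385 bp) 0.922 kb and chr18:37960408-37960778 (371 bp) 0.378 kb. The first of these 6 was the farthest from the other list, and the other 5 lay within 1.67 kb of it.

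The HFD list held 1.20 times as many protocadherin peaks as the STD list, with an interval of 0.906 to 1.59 that includes equality and the 1.06 of the autosomes. Covered bases gave 1.14, where the autosomes gave 1.02. For narrow peaks, from 18 and 7, the ratio was 2.57 (1.02 to 7.28), with an interval that includes the 1.11 of the autosomes. For wide peaks, from 42 and 32, it was 1.31 (0.809 to 2.15). A ratio of peak numbers above 1.20 was found in 7 of 77 other chromosome 18 windows and in 201 of 2104 autosomal windows. The interval of the ratio treats both numbers as independent, although 86 STD and 87 HFD peaks lay at shared places, and the peaks without a partner, 27 and 9, are compared above.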

How the data were processed

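BWA and mm9 are the tool and build named, per the submitters' processing notes. How peaks were called, at which threshold, against which control and from how many mice is not stated in these sources. The authors deposited 1 BED list per library with chromosome, start, end and peak name, and no score. The deposited lists held 6 mitochondrial peaks each, which were set aside, leaving 166432 STD and 175767 HFD peaks. Positions are printed counting from 1.

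The region, its flanks of 1 Mb and all windows took every peak that overlapped by 1 bp or more, and steps of 50 kb took peaks by midpoint. Other windows of 930 kb were laid outward from both ends of the region on chromosome 18, and from the first peak on the other autosomes. A partner is a peak of the other list that overlaps by 1 bp or more, and the counts were identical with bedtools 2.31.1. Computation used pandas 2.3.3, scipy 1.17.1, numpy 2.4.6 and matplotlib 3.10.9 in Python 3.11.15, and the functions were tested on simulated lists. Intervals are exact Clopper-Pearson, Poisson, conditional binomial (ratios) or order-statistic (medians) intervals. Named peaks are the 5 widest and the 3 widest without a partner in each list, with the 3 fullest and 3 emptiest steps, the 3 longest stretches without a peak, the extreme partner shares and the longest run of 1 diet. The region, these rules and the lists were chosen with earlier results of these data known. The limit for wide peaks, the limit of 600 bp and the division into stretches of the profile were set after the data had been seen. Alternatives were other overlap rules, flank sizes, width filters, merging of gaps up to 500 bp and covered bases. The planned comparison of promoter sequences is not analysed here.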

Additional observations from a re-analysis of the deposited data

How the results depend on the processing

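Of 64 recomputed values 41 stayed inside the interval of the reported one and 23 lay outside it. A turned direction could be counted only for the HFD share of peaks lacking a partner. No other recomputed quantity was both compared with equality and reported with an interval that excluded it. None of the alternatives for that share turned its direction. The density over the rest of chromosome 18 and the HFD over STD ratio of narrow peaks also had intervals that excluded equality. Alternatives were not computed for them, so whether their direction depends on the processing was not tested. Several of the 23 change the quantity by construction: covered bases per kb were 48.9 (STD) and 55.8 (HFD), median widths above the narrowest peak 152 and 121.5 bp, and the wider 50% of each list left 76.3 and 82.8 peaks per Mb. Merging gaps of up to 500 bp gave 101 peaks per Mb with HFD and a wide share of 51.1%, against 18% over the rest of chromosome 18. Density over the flanks was 1.15 (STD) and 1.30 (HFD) in covered bases and 1.19 and 1.29 in the wider 50%, and flanks of 2 Mb gave 1.07 with STD, while merging gave 0.907 with HFD, so its direction depended on these choices in both libraries. With the limit for wide peaks at 100 bp above the narrowest, an alternative chosen after seeing the data like every other change of that limit, 70.5% (STD) and 55.3% (HFD) were wide, against 37.3% and 35.6% on the rest of the chromosome. At 300 bp it was 23.2% and 23.7%, against 6.84% and 5.85%. The partner share with STD was 81.1% with reciprocal 50% overlap and 81.7% in the wider 50%. The median width with HFD was 445 bp for peaks with a partner, and neighbours in the wider 50% were 7.38 kb (STD) and 6.96 kb (HFD) apart. Of peaks lacking a partner, HFD made up 56.7% in the wider 50% and 57.6% with the same number of widest peaks, the second added after seeing the data. No paired analysis was possible because there is a single library for STD and a single one for HFD; for the same reason none was left out in turn. As depth is unknown, a place without a peak may hold signal below the unstated threshold.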
